A study of Equus caballus with 17 samples.

Results

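The 100 genes that took the most reads in cultured horse skeletal muscle cells are described here across 5 groups of oxygen level and time. CPM (a gene's reads divided by all counted reads of its library and brought to a common scale) were averaged over all 17 libraries, and the 100 genes of highest mean were taken out of 38849 gene IDs, of which 25530 had any read. The choice rests on the levels themselves, so the levels and shares below are a description with no test. Genes are called by their place in this order, gene 1 being the most counted. The order is one of reads, not of RNA molecules, because CPM is not corrected for transcript length.

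One foal, described as preterm and 10 months old, gave the cells post mortem from its gluteus medius, and all groups share this donor, the pronase digestion, the pre-plating against fibroblasts and the gelatin-coated flasks. Cultures kept in 21% O2, as in room air, gave 5 libraries after 48 h and 4 after 72 h. Those in 1% O2 gave 3 and 2 libraries at these times, and those in 3% O2 gave 3 at 72 h. The labels speak of 3 technical replicates a group, which is not the number of libraries in each, and do not say whether libraries came from separate cultures, so the tests measure the spread between these libraries, which may be technical. The deposited tables name genes by Ensembl ID only, and 0 of these IDs could be paired with a symbol, so myoblast and fibroblast markers could not be looked up and the labelled cell type was not checked.

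As background, a small set of transcripts takes a large part of the messenger RNA of any cell in culture. In adherent cells of connective tissue or muscle origin it usually includes messages for ribosomal proteins, translation factors, actin and other parts of the cytoskeleton, collagens and other matrix proteins, glycolytic enzymes, and the transcripts of the mitochondrial genome. Low oxygen is known to act through hypoxia-inducible factors, which raise glycolytic enzymes and others. Which of these classes hold which of the 100 genes is not known from the files, and no gene below is assigned to one.

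Total counts ran from 12358247 to 24274627 per library. All 100 genes passed the low-count filter of the tests, and the smallest count of any of them in any library was 5662 reads, so counting noise was small beside the spread between libraries. Across the transcriptome, libraries of the same group did not always lie together. The first principal component of all genes tested held 45.0% of the variance, and on it 3 libraries had the other sign than the rest of their group: replicate 3 of both groups at 48 h and replicate 1 in 3% O2. The counts of each comparison are given with and without these libraries. They were picked for lying apart from the rest of their group, so leaving them out tends by itself to lower the spread within groups. A higher count without them is therefore no support for a group difference.

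The 100 genes held 29.0% ± 2.99 of counted reads (SD, n = 17). The share was 27.0, 31.9, 35.0, 26.2 and 27.7% in replicates 1 to 5 in 21% O2 at 48 h. It was 28.1, 27.0 and 34.0% in replicates 1 to 3 in 1% O2 at 48 h. Both groups at 48 h thus had their highest share in replicate 3, and they overlapped over almost their whole range. At 72 h the share was 31.1, 26.3, 26.0 and 26.6% in replicates 1 to 4 at 21% O2. Replicates 1 to 3 at 3% O2 had 25.5, 30.6 and 30.7%, and replicates 1 and 2 at 1% O2 had 27.2 and 31.8%. The widest 95% binomial interval (Wilson, counting error only) reached 0.0257 percentage points to either side, which leaves out any variation between cultures or library preparations. All 5 groups overlapped.

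At 48 h the mean share was 29.6% ± 3.75 in 21% O2 (SD, n = 5) and 29.7% ± 3.78 in 1% O2 (SD, n = 3). At 72 h it was 27.5% ± 2.41 in 21% O2 (SD, n = 4), 29.0% ± 2.98 in 3% O2 (SD, n = 3) and 29.5% ± 3.26 in 1% O2 (SD, n = 2). These means lay within 1 SD of each other. In bulk RNA, fewer cells of a type and less of a transcript per cell cannot be told apart. The first 10 genes held 10.7% ± 1.65 of reads (SD, n = 17), from 8.46% in replicate 1 at 3% O2 to 14.1% in replicate 3 in 21% O2 at 48 h. Genes 11 to 100 held 16.4 to 20.9%. The number of genes needed to reach 50% of a library's reads ran from 355 in replicate 3 in 21% O2 at 48 h to 617 in replicate 1 at 3% O2, which are also the libraries of highest and lowest share.

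**Figure D1:**
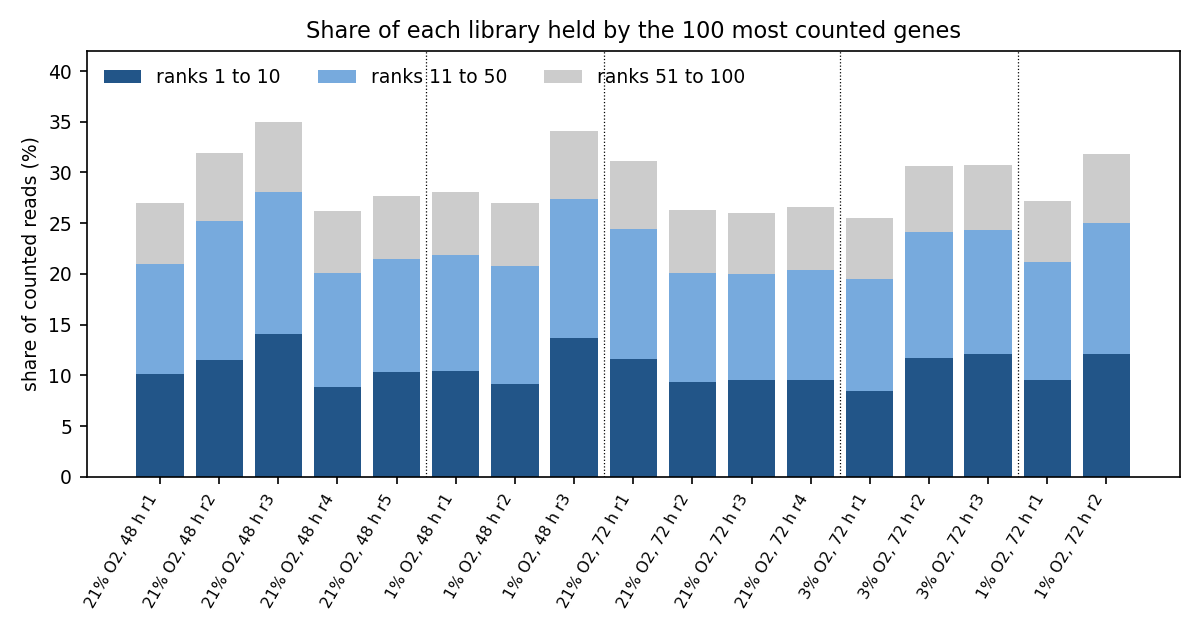
Share of counted reads (%, vertical axis) held by the 100 genes in each of the 17 libraries (horizontal axis, by group; r is the replicate), split by rank. Every group holds bars of different height, from 25.5% to 35.0% over all libraries, and no group stands clear of the others.

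The order differed between libraries. Of the 100 genes, 70 were among the first 100 of every library, and a library's own first 100 held 86 to 93 of them. In all, 151 genes were among the first 100 of some library. The member least often among them was so in 6 of 17 libraries, and the lowest place of any member in any library was 376. These counts use the same levels that chose the members. The groups' own first 100 by mean level shared 83 genes, and held 96 of the 100 in 21% O2 at 48 h, 97 in 1% O2 at 48 h, 89 in 21% O2 at 72 h, 96 in 3% O2 at 72 h and 94 in 1% O2 at 72 h. At the edge of the set, gene 99 (ENSECAG00000021672) had a mean of 985 CPM and gene 100 (ENSECAG00000018381) one of 981 CPM. The next in the order, ENSECAG00000008542 and ENSECAG00000022627, left out, had 976 and 975 CPM, so the last places rest on differences far smaller than the spread between libraries.

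Levels fell steeply down the order. Genes 1 to 4 were above 10000 CPM on average and held 6.40% of reads, and 53 genes lay under 2000 CPM and held 6.95%. Gene 1, ENSECAG00000013874, had a mean of 21812 CPM and was first or second in every library. It ranged from 15267 to 22493 CPM in replicates 1, 2, 4 and 5 in 21% O2 at 48 h and reached 29759 CPM in replicate 3. Its mean at 48 h was 20435 ± 5880 CPM in 21% O2 (SD, n = 5) and 21866 ± 5831 CPM in 1% O2 (SD, n = 3). At 72 h it was 23814 ± 1291 CPM in 21% O2 (SD, n = 4), 22220 ± 5615 CPM in 3% O2 (SD, n = 3) and 20560 ± 7195 CPM in 1% O2 (SD, n = 2). No order of the groups stands out from these spreads.

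Gene 2, ENSECAG00000027689, averaged 16671 CPM. Its highest and lowest values fell in the same group, with 28428 CPM in replicate 1 and 9425 CPM in replicate 2 in 1% O2 at 72 h. The other 15 libraries lay between 11061 CPM (replicate 2 in 1% O2 at 48 h) and 20074 CPM (replicate 2 in 21% O2 at 48 h). Gene 3, ENSECAG00000024740, averaged 14312 CPM and ran from 7606 CPM in replicate 1 at 3% O2 to 22612 CPM in replicate 3 in 21% O2 at 48 h.

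Gene 4, ENSECAG00000000701, averaged 11247 CPM. It had 9868, 6575, 7440 and 6995 CPM in 21% O2 at 72 h, against 9674 to 17226 CPM in 21% O2 at 48 h. Those groups met only at their edges, and the log2 fold change with time was -0.84 ± 0.28 (SE), which missed the threshold (edgeR adjusted p = 0.0716). Gene 5, ENSECAG00000022273, averaged 9394 CPM and was the steadiest of the first 5, from 7172 to 12192 CPM. Gene 6, ENSECAG00000013693, averaged 8578 CPM and spread from 3864 CPM in replicate 1 in 1% O2 at 72 h to 16464 CPM in replicate 3 in 21% O2 at 48 h.

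Genes 7, 8 and 10 (ENSECAG00000018600, ENSECAG00000042356 and ENSECAG00000024769) averaged 6770, 6209 and 6031 CPM. Gene 9, ENSECAG00000019781, averaged 6185 CPM and varied most between groups of these 10, and is described with the comparison of times below.

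Variation differed widely among the 100 genes. The coefficient of variation (CV, the SD over the 17 libraries as a percent of the mean) had a median of 18.8%, where all 14465 genes tested had 22.9% and the next 100 in the order had 14.6%. It was under 10% for 22 genes and under 30% for 81. The steadiest were gene 74 (ENSECAG00000000066) at 6.62%, gene 40 (ENSECAG00000020547) at 6.68% and gene 88 (ENSECAG00000010616) at 6.87%. Gene 74 lay between 1095 and 1362 CPM and gene 40 between 1970 and 2520 CPM in all 17 libraries.

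The most variable were gene 9 at 56.8%, gene 37 (ENSECAG00000020669) at 52.5% and gene 18 (ENSECAG00000003345) at 50.3%. For gene 37 the values spread within groups: 751 to 3955 CPM in 21% O2 at 48 h and 977 and 4146 CPM in the libraries in 1% O2 at 72 h. Gene 18 did likewise, with 1753 to 6493 CPM and 1887 and 6646 CPM in the same groups. Taking the variance of log2 CPM apart, the 5 groups held a median of 22.6% of it per gene over the 100 genes and 27.3% over all genes tested. With 5 groups over 17 independent libraries, a share of 25% is the average with no group difference. The 22.6% is a median, not an average, over genes that partly move together. It is no sign of a difference and leaves differences in single genes undecided. The extremes were 81.5% for gene 89 and 81.4% for gene 9 against 2.57% for gene 6 and 2.03% for gene 38.

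The 100 genes were sorted by how their log2 CPM moved over the 17 libraries into 4 patterns (average linkage on 1 less Pearson's r). The patterns were found on these values, so they are a description with no test, and all r values are across 17 libraries that share their scaling to a common total. Pattern A held 46 genes and 15.5% of reads, among them genes 1, 3, 4, 5, 6, 8 and 10. Within it the median r was 0.56, with single pairs as low as -0.78, so it is a loose set. Among its genes in the first 10, r with gene 1 was 0.96 for gene 3, 0.89 for gene 6, 0.87 for gene 8 and 0.83 for gene 10. For genes 4 and 5 it was only 0.30 and 0.31.

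Pattern A cut across the oxygen and time groups. Its mean deviation from each gene's own average was 0.41 (log2) in replicate 3 in 21% O2 at 48 h and 0.38 in replicate 3 in 1% O2 at 48 h, while the other libraries of those groups lay between -0.34 and 0.19. At 1% O2 for 72 h replicate 1 had -0.35 and replicate 2 had 0.29. At 3% O2 replicate 1 had -0.30, and replicates 2 and 3 had 0.23 and 0.24. Replicate 3 of both groups at 48 h, where pattern A was highest, also had the largest shares held by the 100 genes. The sum of pattern A ran from 11.2% to 21.6% of reads, the widest range in percentage points, but it also held the most reads. In mean deviation (log2) pattern D, described below, ran wider, from -0.93 to 0.45, against -0.35 to 0.41 for pattern A.

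Pattern B held 23 genes and 3.82% of reads, with a median CV of 7.98%, and stayed between 3.26% and 4.26% of reads in every library. It too was a loose set, with a median r of 0.52 and single pairs as low as -0.64. Pattern C held 22 genes and 6.13% of reads, among them genes 7 and 9, with a median r of 0.57 and a lowest of -0.20. Its mean deviation was below 0 in all 4 libraries in 21% O2 at 72 h (-0.39 to -0.21) and in replicates 2 and 3 at 3% O2 (-0.25 and -0.24). It was above 0 in replicate 1 at 3% O2 (0.14), in both libraries in 1% O2 at 72 h (0.13 and 0.196) and in 7 of 8 libraries at 48 h.

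Pattern D held 9 genes and 3.51% of reads (genes 2, 21, 25, 32, 33, 42, 43, 86 and 94), with a median r of 0.69 and a lowest of 0.14. It was set apart by a pair of libraries that share no time: its mean deviation was -0.82 in replicate 2 in 1% O2 at 48 h and -0.93 in replicate 2 in 1% O2 at 72 h. In the other 15 libraries it lay between -0.196 and 0.45, and the highest value was that of replicate 1 in 1% O2 at 72 h. Gene 25 (ENSECAG00000027692) showed the drop most, with 988 and 906 CPM in those 2 libraries and 2810 to 5143 CPM in the others. Gene 33 (ENSECAG00000027684) was an exception, with 1717 and 2067 CPM there. Its lowest level, 1473 CPM, was in replicate 5 in 21% O2 at 48 h.

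Genes 2, 21, 25, 33 and 43 carry neighbouring Ensembl IDs, between ENSECAG00000027671 and ENSECAG00000027692 with gaps of no more than 10. No other run of such IDs among the 100 genes had more than 2. All 5 fell in pattern D. Together they took 1.74% of reads in replicate 2 in 1% O2 at 48 h, 1.58% in replicate 2 in 1% O2 at 72 h, 4.55% in replicate 1 in 1% O2 at 72 h and 2.28 to 3.63% in the other 14 libraries. The highest and the lowest share thus fell in the same group.

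**Figure D2:**
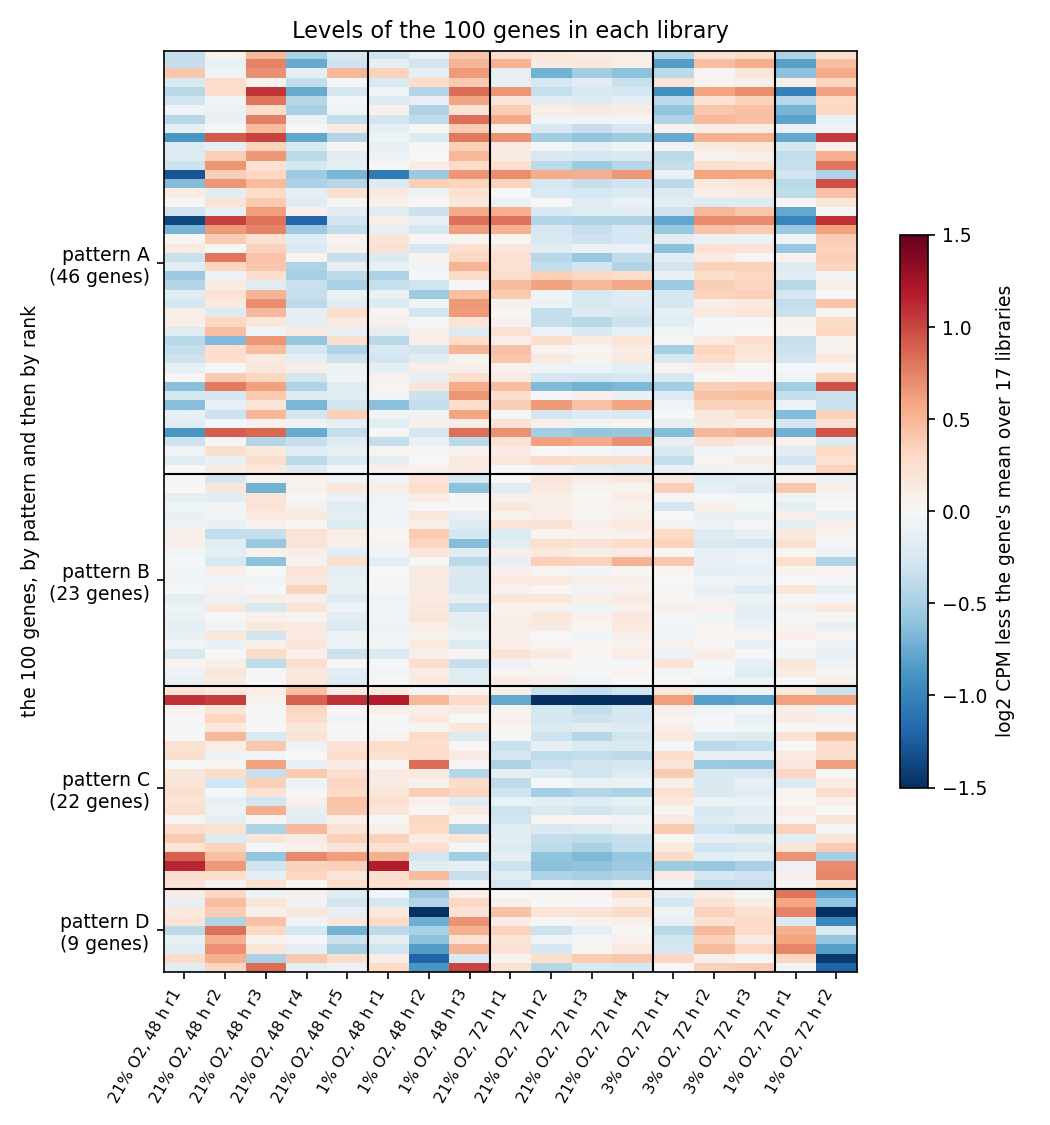
Level of each of the 100 genes (rows, by pattern and then by rank) in each of the 17 libraries (columns, by group), as log2 CPM less the gene's mean; colours end at 1.5 to either side, so larger deviations look alike. Pattern A differs in sign between libraries of the same group in every group, and pattern D is low in replicate 2 at 1% O2 at both times.

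**Figure D3:**
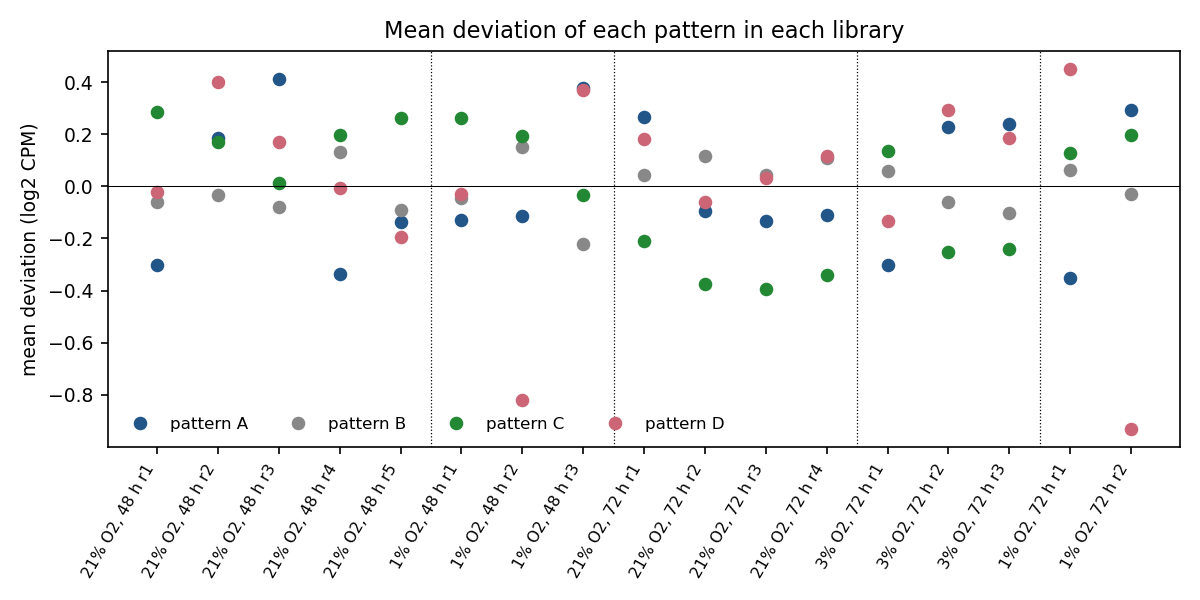
Mean deviation of each pattern (log2 CPM, vertical axis) in each of the 17 libraries (horizontal axis, by group). Pattern C lies below 0 in all 4 libraries in 21% O2 at 72 h, and pattern D falls to -0.82 and -0.93 in replicate 2 in 1% O2 at 48 h and for 72 h.

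Group differences were tested over all 14465 genes that passed the filter with edgeR's quasi-likelihood test on the counts, in 1 fit of all libraries, with Benjamini-Hochberg adjustment and a threshold of 0.05. The 100 genes were chosen on the mean over all libraries, not on these contrasts. The 4 libraries in 21% O2 at 72 h serve in 3 of the 6 comparisons, and their values enter the comparison with 48 h and those with low oxygen with opposite signs.

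From 48 h to 72 h at 21% O2, 12 of the 100 genes fell and 2 rose. Over all genes tested 9.62% passed, 3.15% lower and 6.47% higher. An unadjusted edgeR p under 0.05 was reached by 28 of the 100 and by 25.6% of all genes tested. All 12 that fell belong to pattern C, which was formed on the same values. The median log2 fold change of the 100 genes was -0.12, against -0.01 over all genes, and 30 of 100 were positive. Levels of the 2 times did not overlap for 11 genes that were lower and 6 that were higher at 72 h, against 2.65% and 11.2% of all genes tested.

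Gene 9 (ENSECAG00000019781) changed most. It had 10538, 10158, 5122, 9114 and 10490 CPM in replicates 1 to 5 at 48 h, and 2900, 1135, 1432 and 1589 CPM in replicates 1 to 4 at 72 h. The times did not overlap, although replicate 3 at 48 h and replicate 1 at 72 h stood nearer to the other time. Its log2 fold change was -2.39 ± 0.35 (SE), with an adjusted p by edgeR of 0.0013.

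Gene 83 (ENSECAG00000014259) fell from 2288, 1622, 844, 1312 and 1329 CPM at 48 h to 831, 669, 680 and 709 CPM at 72 h. The groups nearly touched, at 844 and 831 CPM. Its log2 fold change was -1.07 ± 0.29 (SE), with an adjusted p by edgeR of 0.0287. Gene 48 fell from 1910 to 2373 CPM over the 5 libraries at 48 h to 1369 to 1579 CPM over the 4 at 72 h, and gene 91 from 912 to 1251 CPM to 716 to 906 CPM. The log2 fold changes of those 2 were -0.63 ± 0.13 and -0.62 ± 0.18 (SE), with an adjusted p by edgeR of 0.00778 and 0.0381. Gene 7, the most counted gene that fell, went from a mean of 7714 ± 814 CPM (SD, n = 5) to 5747 ± 888 CPM (SD, n = 4), and the log2 fold change was -0.47 ± 0.13 (SE), with an adjusted p by edgeR of 0.031. The other falls were those of genes 19, 26, 60, 65, 69, 79 and 98, with log2 fold changes from -1.01 to -0.41. Of these, genes 65 and 79 had levels that overlapped between the times.

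The rises were those of genes 89 and 54. Gene 89 (ENSECAG00000016987) had 775 to 1037 CPM at 48 h and 1222, 1611, 1559 and 1697 CPM at 72 h, a log2 fold change of 0.72 ± 0.12 (SE), with an adjusted p by edgeR of 0.00266. Gene 54 (ENSECAG00000013832) had 1202 to 1847 CPM at 48 h and 2340, 2569, 2386 and 2526 CPM at 72 h, also 0.72 but with an SE of 0.21 (edgeR adjusted p = 0.039). Neither overlapped between the times.

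How many of the 100 genes passed depended on single libraries. Of the 14 falls and rises together, the number was 5, 9 and 7 without replicates 1, 2 and 5 at 48 h, and 4 without replicate 2, 3 or 4 at 72 h. Without the 3 libraries opposite to their groups it was 22. For counts with libraries left out or by other methods, here and below, the share of all genes tested is mostly not given. They are therefore not read as a result about the 100 genes. Genes 9, 48 and 89 passed under all 25 alternatives run for each, while genes 83, 54, 91 and 7 lost their call under 5, 8, 8 and 8 of 25.

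**Figure D4:**
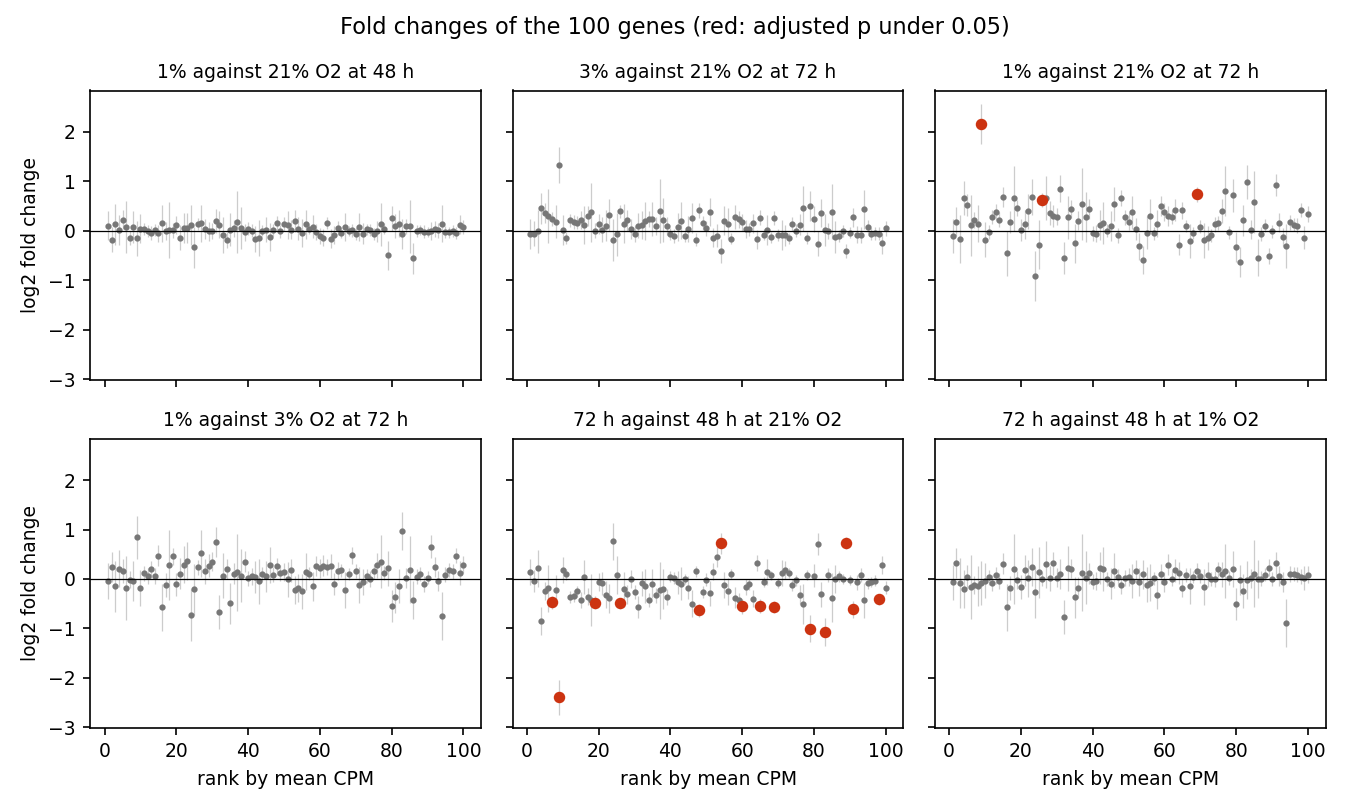
Log2 fold change (vertical axis; bars are the SE) of each of the 100 genes by rank (horizontal axis) in 6 comparisons, with genes of edgeR adjusted p under 0.05 in red. There are 14 red points for 72 h against 48 h at 21% O2, 3 for 1% against 21% O2 at 72 h and none in the other panels.

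Between 1% and 21% O2 at 72 h, 3 of the 100 genes were higher at 1% O2 and none was lower, where 1.22% of all genes tested passed, 0.346% higher and 0.878% lower. They were genes 9, 26 and 69. An unadjusted edgeR p under 0.05 was reached by 19 of the 100 and by 21.5% of all genes tested. Gene 9 had 7577 and 7555 CPM in the 2 libraries at 1% O2, all above the 1135 to 2900 CPM at 21% O2, and its log2 fold change was 2.16 ± 0.41 (SE), with an adjusted p by edgeR of 0.0469. Gene 26 had 3579 and 3852 CPM against 2475 to 2725 CPM, and gene 69 had 1437 and 1665 CPM against 905 to 1105 CPM. Their log2 fold changes were 0.62 ± 0.14 and 0.73 ± 0.15 (SE), with the same edgeR adjusted p of 0.0469. That value was the smallest of any gene tested in this comparison.

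These 3 calls lay just under the threshold. The number was 0 by limma-voom and 0 with the replicate number as a block, and 7 by DESeq2. It was 0 without replicate 2 in 1% O2 at 72 h, without replicate 1 in 1% O2 at 48 h, without replicate 1, 2, 4 or 5 in 21% O2 at 48 h, without replicate 2, 3 or 4 in 21% O2 at 72 h and without replicate 2 or 3 at 3% O2. It was 5 without replicate 3 of either group at 48 h or replicate 1 at 3% O2, 6 without replicate 1 of either group compared, and 13 without the 3 libraries opposite to their groups. All 3 genes kept their direction throughout, and all 3 also fell with time at 21% O2, a comparison that uses the same 4 libraries. The median log2 fold change of the 100 genes was 0.16, against 0.02 over all genes. It was -0.02 without replicate 2 at 1% O2, so that its sign rests on that library. Levels did not overlap for 20 genes higher and 17 lower at 1% O2, where 13.7% and 20.3% of all genes tested did not overlap.

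Between 3% and 21% O2 at 72 h none of the 100 genes passed, as 0% of all genes tested did. By unadjusted edgeR p under 0.05 there were 4 of the 100 (genes 9, 26, 48 and 89) and 5.49% of all genes, and DESeq2 and limma-voom gave 0 of the 100. Without the 3 libraries opposite to their groups it was also 0. Gene 9 had 7640, 2785 and 2873 CPM at 3% O2, so that replicate 1 lay with the libraries at 1% O2 and replicates 2 and 3 with the upper edge of those at 21% O2 (log2 fold change 1.33 ± 0.37, SE, edgeR adjusted p = 0.728). Gene 26 had 3861, 3049 and 2979 CPM, all above the range at 21% O2. Levels did not overlap for 5 genes that were higher and 11 that were lower at 3% O2, against 3.62% and 6.55% of all genes.

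Between 1% and 3% O2 at 72 h, 0 of the 100 genes passed by edgeR (0% of all genes tested), with 7 at an unadjusted p under 0.05 (8.75% of all genes) and 0 by DESeq2 and by limma-voom. Without the 3 libraries opposite to their groups, 8 passed, and without replicate 1 at 3% O2 alone 0 did. Gene 9 in both libraries at 1% O2 lay between replicate 1 and the other replicates at 3% O2. Levels did not overlap for 13 genes that were higher and 7 that were lower at 1% O2, against 9.16% and 11.7% of all genes tested.

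At 48 h no gene of the 100 passed between 1% and 21% O2, with 0 by edgeR, DESeq2 or limma-voom (0% of all genes tested by edgeR), and 0 had an unadjusted edgeR p under 0.05, against 2.92% of all genes. Log2 fold changes ran from -0.56 to 0.25, with a median of 0.02, and 0 of the 100 had levels that did not overlap, against 0.878% of all genes that lay higher and 0.525% that lay lower at 1% O2. Gene 9 had 11230, 6982 and 6029 CPM at 1% O2, inside the range at 21% O2 of 5122 to 10538 CPM but for replicate 1. Without the 3 libraries opposite to their groups 0 passed as well. The median SE of the 100 log2 fold changes was 0.19, and that of gene 37 was 0.62. Changes well above the SE can miss the threshold, as did gene 4 with time at 21% O2 (-0.84 ± 0.28, SE, edgeR adjusted p = 0.0716). That example is from another comparison, with its own adjustment. Between 1% and 21% O2 at 48 h no estimate was that large beside its SE. The lack of calls does not show that levels were equal.

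With time at 1% O2, 0 of the 100 genes passed by edgeR, DESeq2 or limma-voom (0% of all genes tested by edgeR), and 1, gene 32, had an unadjusted edgeR p under 0.05, against 1.78% of all genes. Without the 3 libraries opposite to their groups 0 passed. The log2 fold change of gene 9 was -0.07 ± 0.45 (SE), next to -2.39 at 21% O2. Levels did not overlap for 0 genes higher and 1 lower at 72 h, against 3.46% and 3.98% of all genes. Whether the response to 1% O2 differed between the times was tested as an interaction. For gene 9 it was 2.32 ± 0.55 (SE), with an adjusted p by edgeR of 0.163, and 0 of the 100 genes passed (0% of all genes tested), with 11 at an unadjusted p under 0.05 (14% of all genes) and 2 and 0 by DESeq2 and limma-voom. Without the 3 libraries opposite to their groups 1 passed.

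**Figure D5:**
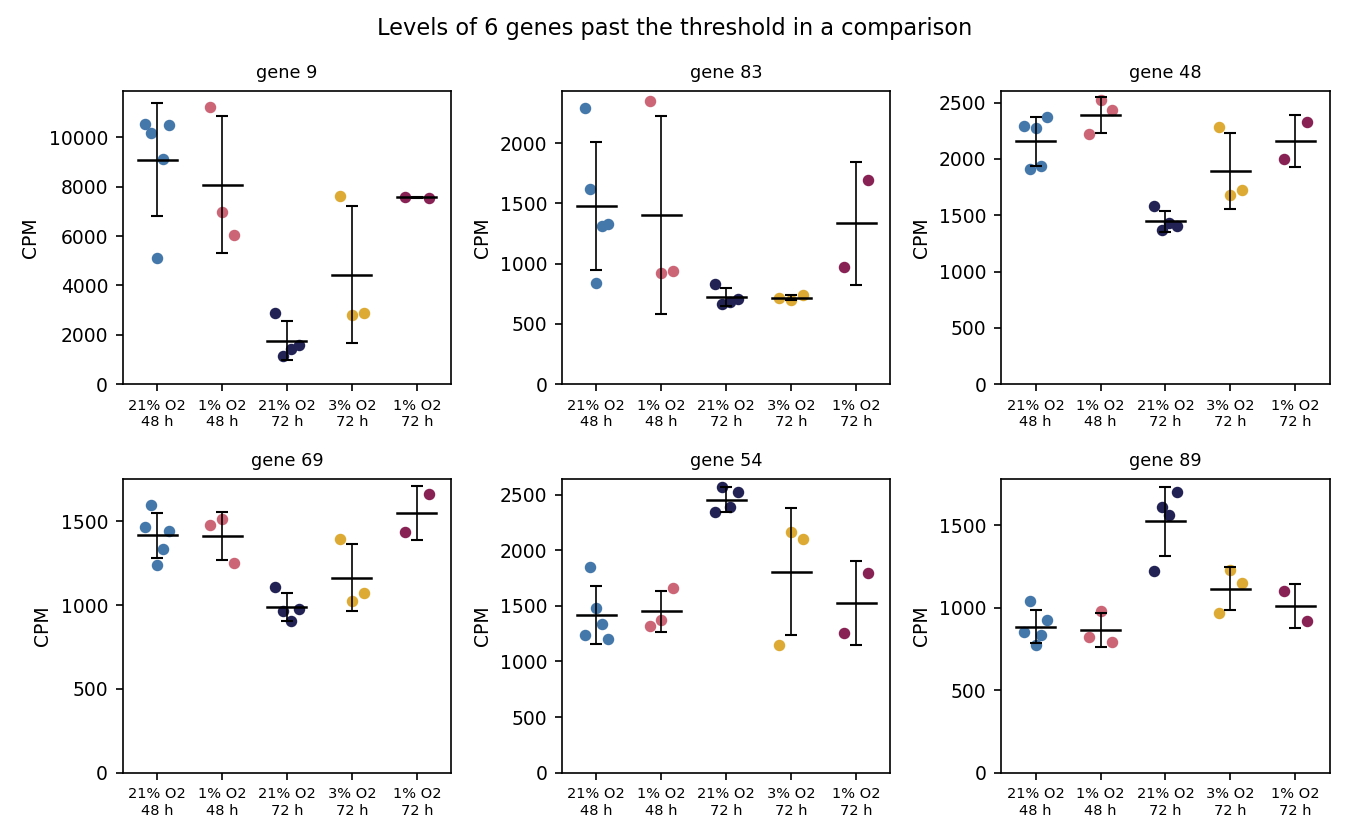
Level in CPM (vertical axis, from 0) of genes 9, 83, 48, 69, 54 and 89 in each library by group (points), with the group mean (line) and SD (bar). The group mean in 21% O2 at 72 h is the lowest of the 5 for genes 9, 48 and 69 and the highest for genes 54 and 89, and in gene 9 replicate 1 at 3% O2, at 7640 CPM, lies beside the 7577 and 7555 CPM at 1% O2.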

How the data were processed

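RNA-seq counts of 17 libraries were used. The authors deposited 1 table a library with counts, unnormalized whole numbers of reads for each Ensembl gene. Per the submitters' processing notes, STAR 2.7.10a, HTSeq 0.13.5 and the build EquCab3.0 were used among other tools, with no role given. Annotation release, strand setting and handling of multiply mapped reads were not given in the sources used here. Genes with near-identical copies or overlaps are therefore uncertain. CPM divides each count by the library's sum. Tests used edgeR 4.0.16 (R 4.3.3) with TMM scaling and filterByExpr, in 1 fit with a mean per group. The fit was run on simulated counts as a check of the code. These were drawn independently for each gene and library, so they lack the spread that genes share between libraries here. The SE is that implied by the test statistic. The share of variance between groups used log2(CPM + 0.5). A reference table of 39335 genes paired 0 IDs with a symbol, so lists by symbol and sequences were not used. Named genes are the first 10, the largest changes past the threshold without overlap (up to 4 each way), the 3 highest and 3 lowest in CV and those at the edge. The members and lists were chosen with earlier results of these data known. Alternatives were DESeq2 1.42.0, its size factors, limma-voom (limma 3.58.1), library size only, no filter, a replicate block, the groups compared alone, members chosen on other libraries and each library left out. Leaving out 3 libraries together was chosen after seeing the data.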

Additional observations from a re-analysis of the deposited data

Results flagged for a closer look

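In groups of 4 or 5 libraries, 11 of 50 sets of values held 1 library far from the others by the gap to its neighbour over the range. Chance alone gives about 1 in 20. The sets share libraries and some of the genes were chosen for high variation, so the count is not read as more than chance gives.

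Replicate 1 in 21% O2 at 72 h was the library apart in 8 of them, each time on the high side. It had 31.1% of reads in the 100 genes, where the others had 26.0 to 26.6%. Gene 3 (ENSECAG00000024740) had 19362 CPM there, against 14344 to 15067 CPM. Gene 6 (ENSECAG00000013693) had 12323 against 6152 to 6665 CPM. Gene 7 (ENSECAG00000018600) had 7068 against 5173 to 5443 CPM, and gene 10 (ENSECAG00000024769) 7622 against 6303 to 6433 CPM. Gene 18 (ENSECAG00000003345) had 5113 against 2139 to 2236 CPM, gene 37 (ENSECAG00000020669) 3401 against 1407 to 1431 CPM, and gene 91 906 against 716 to 735 CPM.

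In 21% O2 at 48 h, replicate 3 had 5122 CPM of gene 9 (ENSECAG00000019781), where the others had 9114 to 10538 CPM, and 10471 CPM of gene 8 (ENSECAG00000042356), against 4474 to 5927 CPM. Replicate 4 had 9139 CPM of gene 7, against 7238 to 7646 CPM.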

How the results depend on the processing

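The number of the 100 genes past the threshold between 1% and 21% O2 at 72 h, 3 by edgeR, was 7 by DESeq2, 0 by limma-voom, 0 with a replicate block, 9 with the groups compared alone and 13 without the 3 libraries opposite to their groups. Without those 3 it was 8 in place of 0 for 1% against 3% O2, 22 in place of 14 for time at 21% O2 and 1 in place of 0 for the interaction, which had 2 by DESeq2. Leaving out 1 library gave 0 to 6, 4 to 18 and 0 to 1 for 1% against 21% O2 at 72 h, time at 21% O2 and the interaction, and 0 in the other comparisons. The cause was not tested. As above, the share of all genes tested is not given for these counts, which are not read as a result about the 100 genes. For time at 21% O2 the replicate block gave 11 genes. Same-numbered libraries at 48 h deviated together for numbers 1 and 3 (r = 0.46 and 0.75 across genes) but not for number 2 (r = -0.03), and 2 of 3 libraries went best with their own number. With 2 pairs each, r was 0.43 and 0.37 for 1% against 3% O2 at 72 h, 0.38 and 0.29 for time at 1% O2, and -0.19 and -0.16 for 1% against 21% O2 at 72 h. It ran from -0.15 to -0.08 over 3 pairs for 3% against 21% O2 and from -0.26 to 0.18 over 4 for time at 21% O2. No comparison with 3 or more pairs had every r over 0.1, so the numbers were not taken as pairs. Members chosen on libraries outside each comparison gave 3 and 14 genes in these comparisons, as in the main tests, and shared 95 to 99 of the 100. The first 50 genes held 23.2, 23.3, 21.2, 22.7 and 23.1% of reads at 21% and 1% O2 for 48 h and at 21%, 3% and 1% O2 for 72 h, and the first 200 held 37.0, 37.1, 35.5, 36.4 and 37.1%. Choosing genes by median, weighting groups equally, TMM library sizes and leaving out a library moved the shares by less than 1 SD. With 2 libraries at 1% O2 for 72 h, leaving out 1 assumes that the other varies as other groups do.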

Other observations

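A gene outside the 100 took a large share of 1 library. ENSECAG00000032733, place 108 by mean level, had 11279 CPM in replicate 3 in 21% O2 at 72 h, where it was the 4th most counted gene and held 1.13% of reads. In the other 16 libraries it lay between 110 and 599 CPM. That library's own first 100 genes held 27.8% of reads, against 26.0% for the 100 genes described above.

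The group in 21% O2 at 72 h had the most genes of its own first 100 from outside the set, 11 in number, against 3 to 6 in the other groups. These include ENSECAG00000032733, which entered only through replicate 3. Another, ENSECAG00000025060, place 137 by mean level and chosen here after its values were seen, had 1242 to 2246 CPM in 21% O2 at 72 h. It had 148 to 651 CPM in 21% O2 at 48 h, 169 to 813 CPM in 1% O2 at 48 h, 209 to 1344 CPM in 3% O2 at 72 h and 125 to 211 CPM in 1% O2 at 72 h.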
